A study of Mus musculus with 12 samples.

Results

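The genes described here are 9 genes used as marks of mast cells, Cpa3, Mcpt4, Cma1, Tpsb2, Hdc, Kit, Fcer1a, Ms4a2 and Gata2, read in cells sorted from mouse muscle as satellite cells. They are 9 of 19938 genes measured on 12 arrays, were listed by name with earlier results of these arrays in view, and each has 1 probe set (the group of array probes read out as one value). Their levels across the stages are therefore given as a description, without a test, and tests are given only for other genes. The lists of other genes were also drawn up with earlier results of these data known. The counts of calls in those lists are therefore descriptions too.

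The study set satellite cells, the stem cells of skeletal muscle, of 4 ages side by side. All mice were C57BL/6 by label and heterozygous for Pax7-ZsGreen, a green fluorescent reporter of the satellite cell factor Pax7. Every stage carried it, and ZsGreen+ cells were sorted by flow cytometry. The fetal group (E17.5) came from the whole forelimb and hindlimb of 4 mice. The other groups came from hindlimb muscle: adolescent at postnatal day 21 from 6 mice, adult at 2 to 3 months from 8 mice, and aged over 1 year from 8 mice. Each stage has 3 arrays. Cells of several mice were pooled per stage, and nothing in the labels says that the 3 arrays came from separate pools, so the spread between arrays may be technical. The sort gate was set separately for each age. Age, limb and gate change together between fetal and adolescent cells and cannot be told apart. Values are RMA signals on a log2 scale, so a difference of 1 is a doubling of signal.

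Mast cells are white blood cells of connective tissue that store histamine, heparin and proteases in granules and release them when an antigen binds IgE on their surface. They arise from blood-borne progenitors, settle in tissues before birth, and depend on KIT, the receptor for stem cell factor. Their IgE receptor has an alpha chain (Fcer1a), a beta chain (Ms4a2) and a gamma chain shared with other white blood cells (Fcer1g). GATA2, a zinc-finger factor that binds GATA motifs in DNA, is needed for mast cells and for blood progenitors, and is also made by endothelial cells.

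The 250 bases before the start of transcription are shown for 4 members whose signal was highest in the fetal stage, with GATA motifs in capitals. They are from RefSeq on GRCm38.p6 and written 5′ to 3′ on the strand of the gene. The motif searched was AGATAA, in which the first letter could also be T and the last could also be G, on both strands. In Cma1 the capitals read CTATCT because the motif lies on the opposite strand. The windows are chr3:20242182-20242431 for Cpa3, chr14:56062311-56062560 for Mcpt4, chr14:55944676-55944925 for Cma1 and chr2:126618679-126618928 for Hdc, all on the minus strand.
Cpa3: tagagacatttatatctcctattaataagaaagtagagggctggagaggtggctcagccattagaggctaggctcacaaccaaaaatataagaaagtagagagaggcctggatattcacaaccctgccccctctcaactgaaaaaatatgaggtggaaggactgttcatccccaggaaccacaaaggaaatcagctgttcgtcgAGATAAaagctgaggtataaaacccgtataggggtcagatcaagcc
Mcpt4: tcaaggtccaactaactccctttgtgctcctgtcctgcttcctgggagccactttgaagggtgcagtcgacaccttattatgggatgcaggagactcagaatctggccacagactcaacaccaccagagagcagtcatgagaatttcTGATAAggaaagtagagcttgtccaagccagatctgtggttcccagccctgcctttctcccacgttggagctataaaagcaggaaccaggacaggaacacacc
Cma1: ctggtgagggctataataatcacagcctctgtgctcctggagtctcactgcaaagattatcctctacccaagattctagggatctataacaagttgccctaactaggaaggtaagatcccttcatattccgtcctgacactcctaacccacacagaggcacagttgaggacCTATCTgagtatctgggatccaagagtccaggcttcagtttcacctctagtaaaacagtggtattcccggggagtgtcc
Hdc: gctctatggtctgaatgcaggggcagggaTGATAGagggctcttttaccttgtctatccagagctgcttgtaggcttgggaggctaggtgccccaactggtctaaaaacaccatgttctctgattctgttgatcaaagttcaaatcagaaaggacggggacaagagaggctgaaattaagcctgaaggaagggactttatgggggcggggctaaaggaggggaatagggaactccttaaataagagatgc
The motif begins at -46 in Cpa3, at -103 in Mcpt4, at -79 in Cma1 and at -221 in Hdc, counted from the start of transcription. Of the 9 members, 8 had a window and Tpsb2 had none. A GATA motif was found in 6 of the 8, these 4 and the IgE receptor genes Fcer1a (at -92) and Ms4a2 (at -224, -37 and -11), and not in the windows of Kit and Gata2. Of 32851 windows of the same length over all genes, 26.5% held at least 1 such motif and 1.35% held 3 or more. E-boxes (CANNTG), the motif of basic helix-loop-helix factors, were found in 4 of the 8 members with a window, against 66.2% of all windows. Kit and Gata2 had 2 windows each, which held neither motif. Counts by member and shares by window are therefore not of the same kind. A match in letters is not a measured site, and no binding was measured.

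Satellite cell genes were read at every stage, which does not measure how pure the sorted cells were. All 11 satellite cell genes listed were above background on every array, and so were all 10 endothelial genes listed. Pax7 lay at 10.36 to 10.51 on fetal, 10.84 to 11.03 on adolescent, 11.45 to 11.69 on adult and 11.51 to 11.71 on aged arrays. Array medians were 6.13 to 6.29, highest on adult replicates 2 and 3. The processing brings the arrays to a like distribution, so near medians are no check of the arrays. Background was read from 1210 probe sets for olfactory and vomeronasal receptors, and a gene was called above background on an array where it exceeded their 95th percentile there. That level was 5.33 to 5.52 on 9 arrays, but 6.14 on adult replicates 2 and 3 and 5.86 on aged replicate 1, which stand apart. The mean receptor signal was 4.47, 4.50 and 4.31 on those 3 arrays, against 3.79 to 3.91 on the others. Replicates 2 and 3 of every stage were also closer to each other (SD of the difference over genes 0.101 to 0.164) than either was to replicate 1 (0.229 to 0.500). With 3 arrays per stage, their number limits the precision of every value.

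The main pattern among the members was a higher signal in fetal cells than at all 3 later stages for the mast cell proteases, Hdc and Kit. Of these, Cma1 was above background on only 2 fetal arrays. In all, 6 members were above background on all 3 fetal arrays, 4 on all 3 adolescent arrays, 1 on all adult arrays and 2 on all aged arrays. These counts depend on the background level, which was raised on adult replicates 2 and 3 and aged replicate 1. Tpsb2 averaged 5.77 in adolescent and 5.78 in adult cells, yet was counted only in adolescent cells. Of 67 other genes of mast cell biology, 41, 41, 26 and 34 were above background on all fetal, adolescent, adult and aged arrays. Between adolescent and fetal cells, 7 members were lower and 1 was higher with no overlap between the arrays of the stages. Over all genes, 18.9% were lower and 22.7% higher in that way. The members were chosen for this contrast, so nothing is read from the count. The median difference over the 9 members was -1.02 for adolescent minus fetal, against 0.02 over all genes. In RNA from a sorted population, fewer cells of a type and less RNA per cell cannot be told apart.

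**Figure D1:**
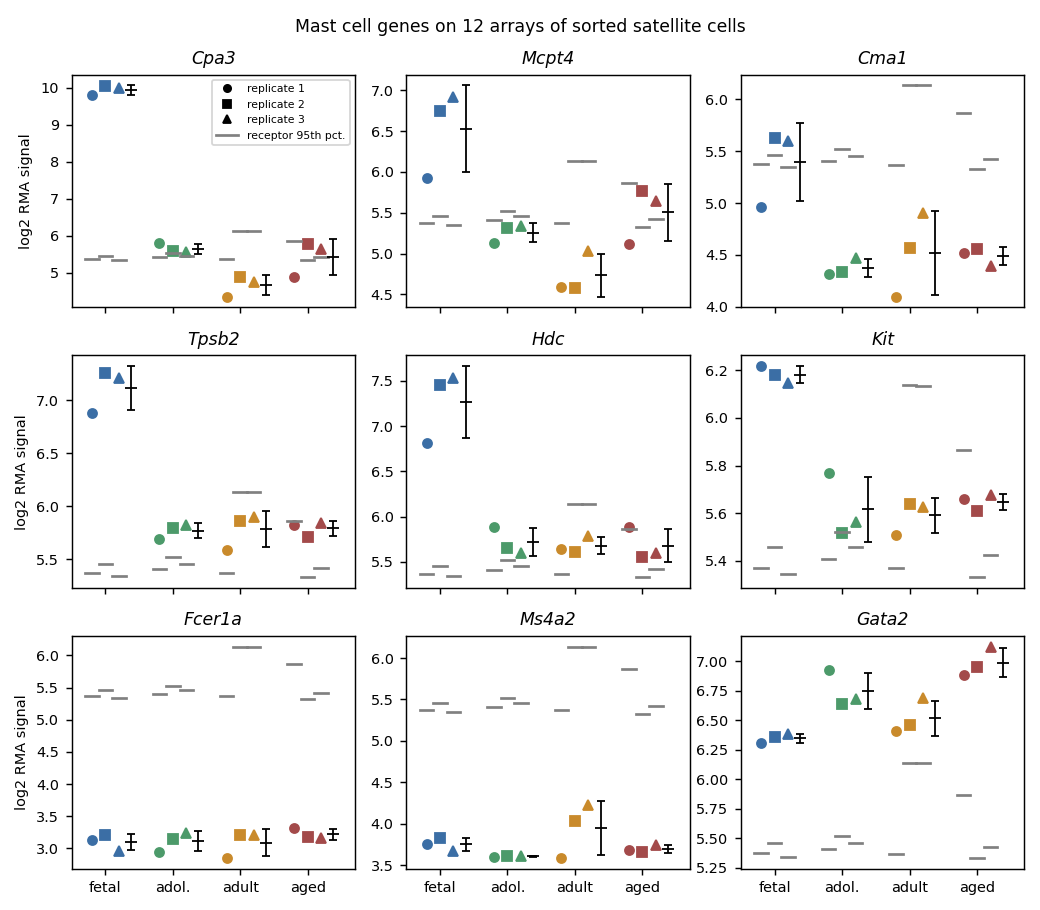
Log2 RMA signal of each of the 9 genes on every array (3 replicates per stage as circle, square and triangle), with the stage mean and SD in black beside them and the receptor background of each array as a grey bar; each panel has its own vertical scale. Cpa3 sits near 10 on the fetal arrays and below 6 on the other 9, while Fcer1a and Ms4a2 lie under the grey bars throughout.

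Among the granule proteases, Cpa3, the mast cell carboxypeptidase, had the widest gap between stages among the members. It read 9.79, 10.04 and 9.98 on the fetal arrays, 5.79, 5.57 and 5.55 on the adolescent arrays, 4.35, 4.89 and 4.75 on the adult arrays and 4.87, 5.77 and 5.64 on the aged arrays. The fetal arrays stood far above the rest, with 9.79 as their lowest value and 5.79 as the highest value elsewhere. The difference was -4.30 ± 0.21 (SE) for adolescent minus fetal, a 19.7-fold lower signal in adolescent cells. The adolescent values lay close to the background of those arrays, 5.41, 5.52 and 5.46, so this fold rests on a dim signal. The adolescent values of Tpsb2 and Hdc, given below, are also near that level. Adult arrays were again lower than adolescent arrays without overlap, with a difference of -0.97 ± 0.21. None of the 3 adult arrays was above background, so this difference has no fold. The adult signal was at least 16.6-fold lower than the fetal one. This bound, and each one given as "at least" for other genes, sets the mean of the brighter stage against the receptor background level or the gene's own value, whichever was higher on each array of the dimmer stage. It is used where not all arrays of the dimmer stage were above background. Aged cells averaged 5.43 ± 0.49 and adult cells 4.66 ± 0.28 (SD, n = 3 each), and their arrays overlapped. Only aged replicates 2 and 3 were above background. The order of the stage means was fetal, adolescent, aged, adult, with adolescent and aged arrays overlapping.

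Mcpt4 and Cma1 are chymases, granule proteases of connective tissue mast cells, and their genes lie near each other on chromosome 14. Mcpt4 read 5.92, 6.75 and 6.92 on fetal, 5.12, 5.31 and 5.34 on adolescent, 4.59, 4.58 and 5.04 on adult and 5.11, 5.76 and 5.64 on aged arrays. The fetal arrays were higher than all others. Among the later stages, the adult arrays lay below both the adolescent and the aged arrays without overlap. The difference was -1.27 ± 0.24 for adolescent minus fetal, and with no adolescent array above background the adolescent signal was at least 2.10-fold lower. The aged arrays of Mcpt4 were all above the adult arrays, by 0.77 ± 0.24. Of the 3 aged arrays, 2 were above background, and none of the adult ones was.

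Cma1 read 4.96, 5.63 and 5.60 on the fetal arrays, of which 2 were above background, and between 4.10 and 4.91 on the 9 later arrays, of which none was. The difference was -1.02 ± 0.20 for adolescent minus fetal, without overlap, and the 3 later stages overlapped one another. Tpsb2, a tryptase (the trypsin-like protease that mast cells store bound to heparin), was above background on all fetal and adolescent arrays, 1 adult and 2 aged arrays. It read 6.88, 7.26 and 7.21 on fetal, 5.70, 5.80 and 5.82 on adolescent, 5.59, 5.87 and 5.90 on adult and 5.83, 5.71 and 5.84 on aged arrays. The difference was -1.34 ± 0.12 for adolescent minus fetal, a 2.54-fold lower signal in adolescent cells, and the 3 later stages overlapped one another. Chymases and tryptases belong to families of close paralogues, and how far their probes read each other's transcripts was not tested.

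Hdc encodes histidine decarboxylase, the enzyme that makes histamine. Its signal was 6.81, 7.45 and 7.54 on fetal, 5.89, 5.66 and 5.60 on adolescent, 5.64, 5.61 and 5.79 on adult and 5.89, 5.55 and 5.60 on aged arrays. The fetal arrays stood apart, and the other 9 overlapped one another between 5.55 and 5.89. The difference was -1.55 ± 0.17 for adolescent minus fetal, a 2.93-fold lower signal in adolescent cells. Of the later arrays, all 3 adolescent, 1 adult and all 3 aged ones were above background.

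Kit, the receptor for stem cell factor, is made by mast cells, melanocytes and blood progenitors. It was 6.22, 6.18 and 6.14 on the fetal arrays and 5.51 to 5.77 on the later arrays. The difference was -0.57 ± 0.09 for adolescent minus fetal, and with 2 adolescent arrays above background the adolescent signal was at least 1.48-fold lower. The difference is inside the range that holds the central 90% of all genes in the comparison, -0.65 to 0.72, whereas Cpa3, Mcpt4, Cma1, Tpsb2 and Hdc lay below it. The 3 later stages did not differ beyond their spread.

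The 2 chains that define the high-affinity IgE receptor did not share the pattern. Fcer1a lay between 2.85 and 3.31 on all 12 arrays, and Ms4a2 between 3.59 and 4.23. Neither was above background on any array, at any stage. Ms4a2 was lower on adolescent than on fetal arrays without overlap, with a difference of -0.15 ± 0.14, which is a difference between values under the background. Its highest values, 4.03 and 4.23, were on adult replicates 2 and 3, which carry the raised background. The mast cell label could not be checked on its IgE receptor chains, for which these probes gave no signal above background. The fetal values of the other members were in view when the members were chosen and are no check of it. The gamma chain Fcer1g was measured at 5.74 to 7.13 and did not pass the test in any comparison.

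Gata2 went the other way. It read 6.31, 6.36 and 6.38 on fetal, 6.92, 6.64 and 6.68 on adolescent, 6.41, 6.46 and 6.69 on adult and 6.89, 6.95 and 7.12 on aged arrays, above background on all 12. Fetal arrays were lowest and aged arrays highest, apart from adolescent replicate 1, which overlapped the aged range. Adolescent arrays were higher than fetal arrays by 0.40 ± 0.11 and aged arrays higher than adult arrays by 0.47 ± 0.11, both without overlap. The mean of 10 endothelial genes moved with these steps. It was 7.07 to 7.93 on fetal, 8.54 to 9.08 on adolescent, 7.95 to 7.98 on adult and 8.78 to 9.27 on aged arrays. Other lists took the same steps. In that order of stages, 6 blood progenitor genes averaged 5.51, 5.70, 5.50 and 5.86. For 4 Schwann cell genes the averages were 5.19, 5.89, 5.67 and 5.83. The fibroblast and satellite cell lists did not follow these steps. The part of any of these cells in the Gata2 values was not tested.

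**Figure D2:**
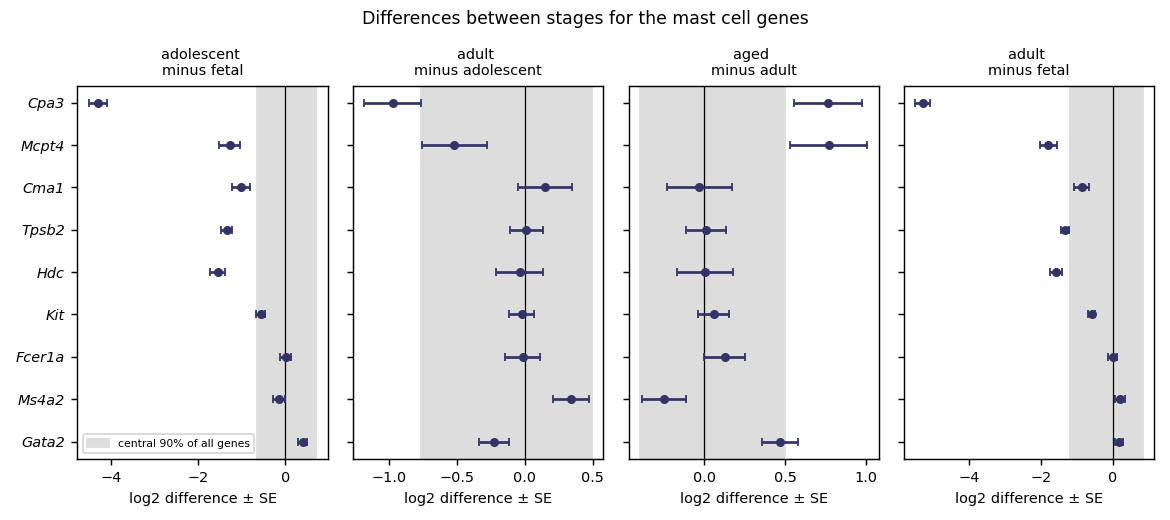
Log2 difference with SE for each gene in the 4 stage comparisons (each panel has its own horizontal scale), with the grey band holding the central 90% of all 19938 genes. Cpa3, Mcpt4, Cma1, Tpsb2 and Hdc lie left of the band for adolescent minus fetal, and Cpa3 and Mcpt4 lie right of it for aged minus adult.

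After day 21 the members differed little between stages, apart from Cpa3 and Mcpt4 and, in aged cells, Gata2. For adult minus adolescent, the median over the 9 members was -0.02, against 0.03 over all genes, and 2 members (Cpa3 and Mcpt4) were lower without overlap, where 22.4% of all genes were. For aged minus adult, the median was 0.06, against -0.01 over all genes. Here 2 members, Mcpt4 and Gata2, were higher without overlap and none was lower, where 10.2% of all genes were higher and 5.78% lower. Cpa3 was higher by 0.77 ± 0.21 in aged cells, with overlap. Without the 3 arrays of raised background, which leaves 2 aged arrays and 1 adult array, aged minus adult came to 1.35 for Cpa3, and the median over the members to 0.32. The 1 adult array left, replicate 1, read 4.35 for Cpa3, under its background. On the aged arrays, Cpa3 and Mcpt4 were lowest on replicate 1, and so was the mean of 10 genes of white blood cells in general. That mean was 6.18 on aged replicate 1 and 6.91 and 6.89 on replicates 2 and 3, against 6.00 to 6.46 on the adult arrays. Ptprc, the common white blood cell antigen CD45, was 5.93, 7.21 and 7.03 on the aged arrays and 5.30, 6.32 and 6.41 on the adult arrays. The part of white blood cells in these values was not tested.

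Adult and fetal cells share their fetal arrays with the first comparison, so their values are not independent of it. Adult minus fetal was -5.27 ± 0.21 for Cpa3, -1.79 ± 0.24 for Mcpt4, -1.59 ± 0.17 for Hdc, -1.33 ± 0.12 for Tpsb2, -0.87 ± 0.20 for Cma1 and -0.59 ± 0.09 for Kit. These 6 were lower without overlap, where 24.9% of all genes were, and Gata2 was higher, where 23% were. The adolescent values for the same genes, given above, were already within 1 log2 unit of the adult ones.

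Within the fetal stage, the proteases and Hdc were all lower on replicate 1 than on replicates 2 and 3. Between those 2 arrays they did not move together. Mcpt4 and Hdc were higher on replicate 3, and Cpa3, Cma1 and Tpsb2 were higher on replicate 2. Fetal replicate 1 minus the mean of replicates 2 and 3 was -0.91 for Mcpt4, -0.68 for Hdc, -0.65 for Cma1, -0.36 for Tpsb2 and -0.22 for Cpa3, while Kit (0.05), Gata2 (-0.06), Fcer1a (0.04) and Ms4a2 (0.00) differed by less than 0.1. On the same array the endothelial mean was 7.93, against 7.07 on both other fetal arrays, and the mean of 8 fibroblast genes was 9.39, against 8.47 and 8.53. The white blood cell mean hardly differed between the fetal arrays, 6.02 to 6.09. Whether a different mix of cells on that array accounts for the member values was not tested.

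Described over all 12 arrays, Pearson's r with Cpa3 was 0.96 for Tpsb2, 0.96 for Kit, 0.94 for Hdc, 0.90 for Mcpt4 and 0.85 for Cma1, but -0.55 for Gata2, -0.10 for Fcer1a and -0.07 for Ms4a2. The points fall into 3 fetal arrays and 9 others, so these values mostly restate the fetal difference. Taken as deviations from the stage means, r was 0.88 between Cma1 and Tpsb2, 0.73 between Mcpt4 and Cma1 and 0.57 between Cpa3 and Mcpt4, but -0.06 between Cpa3 and Hdc. Pairs with genes under the background reached similar values, 0.73 between Fcer1a and Ms4a2 and 0.67 between Cma1 and Ms4a2. Others did not, with -0.01 between Cpa3 and Fcer1a. Between Kit and Gata2 it was 0.69. High values are therefore not particular to the proteases. Arrays also share their background level, which differs between them.

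The genes most like Cpa3 over the 12 arrays, among 12087 genes with a mean of at least 6 in their highest stage, were Prkg1, Lfng, Adam23, Kbtbd8, Sh3rf1, Lama5, Asxl3, Tspan9, Hectd2 and Mstn. Their r lay between 0.987 and 0.996. Prkg1 is a kinase that responds to cyclic GMP, Lfng a glycosyltransferase that modifies Notch receptors, Lama5 a chain of laminin in basement membranes and Mstn (myostatin) a secreted inhibitor of muscle growth. Mstn averaged 9.95 in fetal, 5.35 in adolescent, 4.59 in adult and 4.81 in aged cells. In all, 174 genes had an r above 0.95 and 30 of them also had an r above 0.8 over the 9 postnatal arrays alone. Likeness over 12 arrays is shared by many genes that are high in fetal cells.

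Beyond the members, 67 of 73 other genes of mast cell biology were measured and tested with limma. Between adolescent and fetal cells 10 rose and 7 fell, which is 25.4% of the list. Of all genes 18.8% passed, with 10.1% that rose and 8.68% that fell. The median difference was -0.00, against 0.02 over all genes. The list holds many genes that other cells of muscle also use, and 41 of the 67 were above background on all fetal arrays. The count was 11 without adolescent replicate 2, 26 without the arrays of raised background (none of them fetal or adolescent), and 7 with replicates 2 and 3 of each stage averaged.

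**Figure D3:**
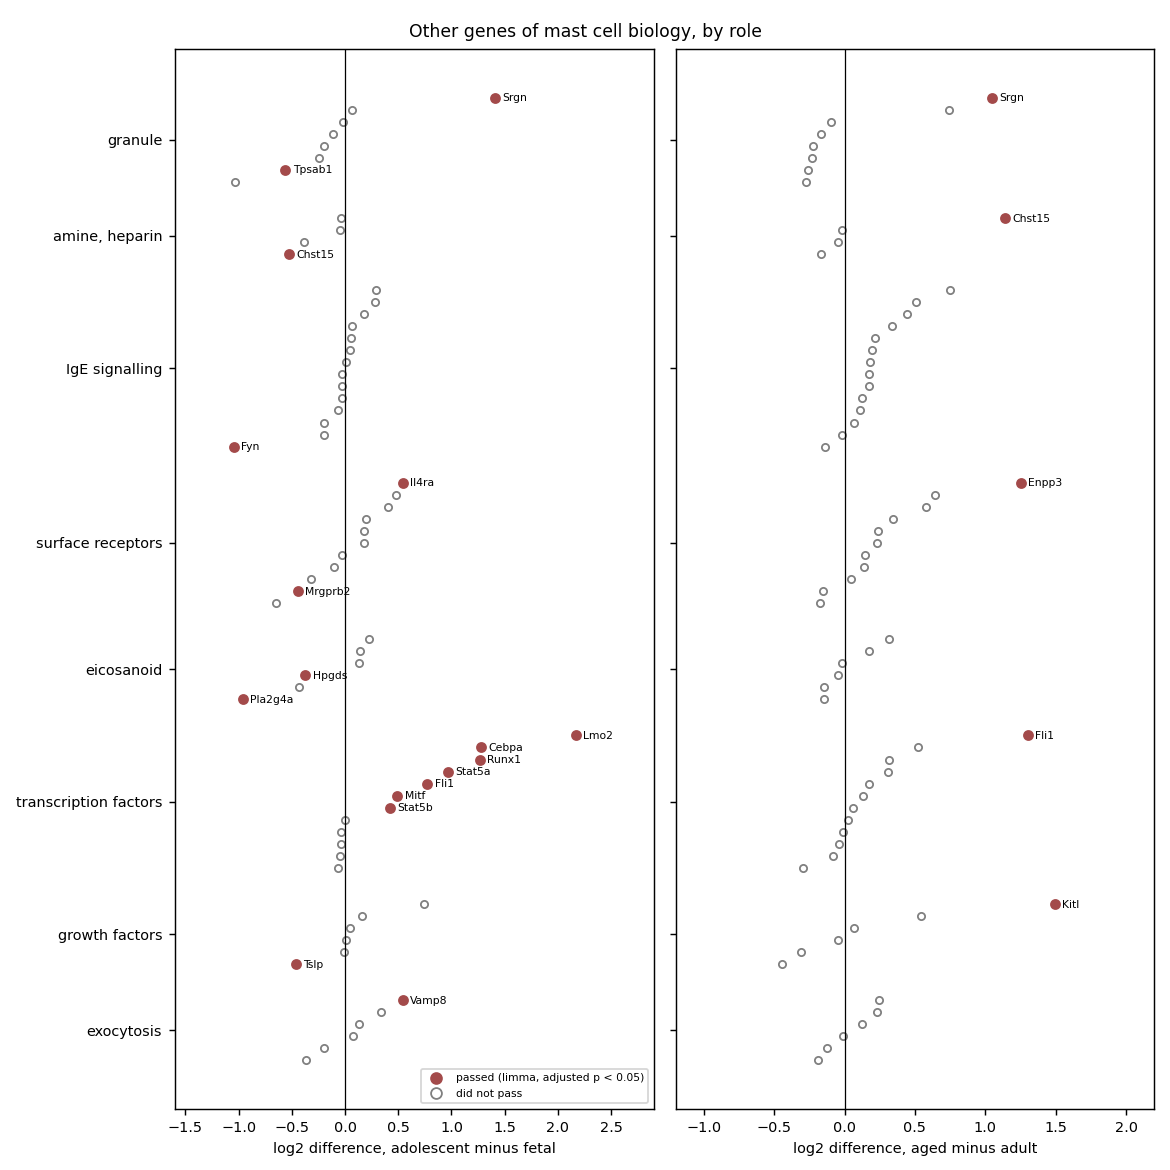
Log2 difference of each of 67 other genes of mast cell biology, grouped by role, for adolescent minus fetal (left) and aged minus adult (right); filled points passed the limma test at an adjusted p under 0.05. On the left, 7 of 12 transcription factors lie right of 0 as filled points and Tpsab1, Chst15, Fyn, Mrgprb2, Hpgds, Pla2g4a and Tslp lie left of it.

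Of 8 other granule genes, Srgn and Tpsab1 passed between adolescent and fetal cells. Tpsab1, the other tryptase gene, was 4.76, 4.84 and 5.08 on adolescent arrays and 5.40, 5.42 and 5.56 on fetal arrays, a difference of -0.56 ± 0.12 (limma, adjusted p = 0.00404). It was above background on 2 fetal arrays only. Srgn, the proteoglycan core of granules in mast cells and of secretory vesicles in endothelial and other cells, was 10.78, 9.94 and 10.01 on adolescent arrays and 8.74, 8.89 and 8.87 on fetal arrays, a difference of 1.41 ± 0.21 (adjusted p = 0.00034). Mcpt1 and Mcpt2, the mucosal mast cell chymases, and Ctsg and Gzmb were not above background on any array.

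Of 4 genes of amine storage and heparin, Chst15, a sulphotransferase that modifies chondroitin, fell between adolescent and fetal cells, with a difference of -0.53 ± 0.16 (adjusted p = 0.0322). That call was lost without fetal replicate 1 (adjusted p = 0.135) or 3 (0.0529) and without adolescent replicate 2 (0.155) or 3 (0.106). Slc18a2, the vesicular transporter that loads histamine, was 4.90, 5.07 and 5.25 on adolescent arrays and 5.28, 5.67 and 5.42 on fetal arrays, and did not pass (adjusted p = 0.316).

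Of 14 genes of IgE receptor signalling, 1 fell and none rose between adolescent and fetal cells, also at an unadjusted p under 0.05. It was Fyn, a Src-family kinase used by many cells, with a difference of -1.05 ± 0.10 (adjusted p = 1.15e-05). Of 11 surface receptors, Mrgprb2, the receptor by which cationic peptides trigger mouse connective tissue mast cells, had a difference of -0.44 ± 0.12 (adjusted p = 0.0198), but at values of 3.51 to 4.22 that lie under the background of every array. That call was lost without adolescent replicate 1 (adjusted p = 0.0564) or 2 (0.0825) and without fetal replicate 2 (0.103) or 3 (0.0644). Il4ra, the interleukin-4 receptor, rose by 0.54 ± 0.16 (adjusted p = 0.0319), a call lost without any 1 of 5 arrays, at adjusted p-values of 0.0744 to 0.134. Of 6 eicosanoid genes, Pla2g4a, the phospholipase that frees arachidonic acid, had a difference of -0.96 ± 0.16 (adjusted p = 0.000728), but it was above background on 1 fetal array and on no other array. Hpgds, prostaglandin D synthase, had a difference of -0.37 ± 0.11 (adjusted p = 0.0331) with no array above background, and lost the call without any 1 of 4 arrays.

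Of 12 transcription factors, 7 rose and none fell between adolescent and fetal cells, also at an unadjusted p under 0.05. Of all genes, 10.1% rose and 8.68% fell by adjusted p. Runx1 differed by 1.27 ± 0.10 (adjusted p = 1.72e-06), Cebpa by 1.28 ± 0.11 (adjusted p = 3.68e-06), Lmo2 by 2.17 ± 0.21 (adjusted p = 7.76e-06) and Stat5a by 0.97 ± 0.10 (adjusted p = 1e-05). All of them are also used outside the blood lineage. Gata1 and Tal1, factors of mast cell, red cell and platelet lineages, did not pass in any of the 4 comparisons. Mitf, needed for mast cells and melanocytes, rose by 0.49 ± 0.12 (adjusted p = 0.0103), a call lost without adolescent replicate 2 (0.054) and with the mean of its probe sets (0.117).

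Of 6 growth factors, Tslp, a cytokine of epithelial cells, had a difference of -0.46 ± 0.11 (adjusted p = 0.00892), with no array above background, and lost the call without adolescent replicate 2 (0.0503) or fetal replicate 2 (0.0507). Of 6 genes of granule exocytosis, Vamp8, a vesicle fusion protein, rose by 0.54 ± 0.09 (adjusted p = 0.00103). Kitl, the stem cell factor that binds KIT, was 8.20, 7.34 and 7.53 on adolescent arrays and 7.56, 6.59 and 6.71 on fetal arrays and did not pass (adjusted p = 0.0907).

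Between adult and adolescent cells, 5 of the 67 genes rose and 7 fell, or 17.9%. Of all genes 19.8% passed, with 4.56% that rose and 15.2% that fell. Among the 67, Enpp3, an ectonucleotide phosphatase used as a surface mark of basophils and mast cells, was above background on 1 adult array and was at least 2.2-fold lower in adult cells (adjusted p = 0.00189). Fyn fell by 0.78 ± 0.10 (adjusted p = 0.00044), and Gab2, an adaptor of IgE signalling, fell by 0.67 ± 0.11 (adjusted p = 0.00137). Runx1 rose by 0.53 ± 0.10 (adjusted p = 0.00375) and Lmo2 by 1.00 ± 0.21 (adjusted p = 0.00548). Mcpt1 rose by 0.38, Il9 by 0.41 and Stxbp2 by 0.38, each ± 0.12. Mcpt1 and Il9 were above background on no array, and read highest on adult replicates 2 and 3, which carry the raised background. Without the arrays of raised background, with 1 adult array left, Mcpt1 differed by 0.14, Il9 by 0.22 and Stxbp2 by 0.16. The count was 6 with the replicate number as a block. It was 22 without adult replicate 1, 5 without adult replicate 2 or 3, 5 without adolescent replicate 1 or 3, 7 without adolescent replicate 2, and 6 without the arrays of raised background. That leaves 1 adult array, assumed to vary like the other groups. Runx1 (0.41, adjusted p = 0.0641) and Lmo2 (0.91, adjusted p = 0.112) kept most of their difference there but did not pass. With replicates 2 and 3 of each stage averaged, none passed in limma and 8 had an unadjusted p under 0.05.

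Between aged and adult cells, 5 of the 67 genes rose and none fell in limma, or 7.46%, and 15 were higher and 2 lower at an unadjusted p under 0.05. Of all genes 3.5% passed, with 3.28% that rose and 0.216% that fell. Kitl was 7.93, 8.51 and 8.45 on aged arrays and 7.10, 6.53 and 6.77 on adult arrays, a difference of 1.5 ± 0.28 (adjusted p = 0.0118). Chst15 rose by 1.14 ± 0.16 (adjusted p = 0.00215), Fli1, an ETS factor of blood and endothelial cells, by 1.30 ± 0.19 (adjusted p = 0.00261) and Srgn by 1.05 ± 0.21 (adjusted p = 0.0174). Enpp3, above background on 1 adult array, was at least 2.05-fold higher in aged cells (adjusted p = 0.0115). The calls of Kitl, Enpp3 and Srgn were lost without aged replicate 2 or 3 or adult replicate 2, at adjusted p-values of 0.0585 to 0.0851, and that of Srgn also without adult replicate 3 (0.0832). The count was 16 without aged replicate 1, 2 without aged replicate 2 or 3, 13 without adult replicate 1, 2 without adult replicate 2, and 21 without the arrays of raised background. That sets 2 aged arrays against 1 adult array, assumed to vary like the other groups. There Kitl differed by 1.38 (adjusted p = 0.0636) and Srgn by 0.68 (adjusted p = 0.18), and neither passed. With replicates 2 and 3 averaged, none passed in limma and 6 had an unadjusted p under 0.05. Of 10 endothelial genes 7 rose in the same comparison, among them Tie1 by 1.08 ± 0.17 (adjusted p = 0.00405) and Esam by 1.23 ± 0.20 (adjusted p = 0.00585). The part of endothelial cells in the rise of Kitl, Fli1 and Srgn was not tested.

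Between adult and fetal cells 12 of the 67 genes rose and 10 fell, or 32.8%. Of all genes 42.5% passed, with 19.1% that rose and 23.4% that fell. Enpp3 and Ctsc, the protease that activates mast cell chymases, were each above background on all fetal arrays and on 1 adult array. Enpp3 was at least 3.44-fold lower (adjusted p = 2.05e-05) and Ctsc at least 3.34-fold lower (adjusted p = 0.000868) in adult cells. Tpsab1 had a difference of -0.46 ± 0.12 (adjusted p = 0.00777), with 2 fetal arrays and no adult array above background. Lmo2 rose by 3.17 ± 0.21 (adjusted p = 1.41e-07). Il9 is counted among those that rose, with no array above background. The count was 34 without adult replicate 1 and 10 with replicates 2 and 3 averaged.

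Genes that mark other blood cells were read on the same arrays. Of 10 genes of white blood cells in general, none passed between adolescent and fetal cells in limma, also at an unadjusted p under 0.05, and their mean was 6.00 to 6.36 on adolescent arrays and 6.02 to 6.09 on fetal arrays. Ptprc was 6.12, 5.77 and 5.62 on adolescent arrays and 5.58, 5.30 and 5.22 on fetal arrays (adjusted p = 0.45). Basophils carry the same IgE receptor as mast cells, and none of 3 basophil genes measured was above background on all arrays of any stage or passed in any comparison (1 had an unadjusted p under 0.05 for adolescent minus fetal). Of 10 neutrophil genes none, and of 6 eosinophil genes 1, was above background on all arrays of a stage. The mean of 9 melanocyte genes was 5.42 to 5.43 on adolescent arrays and 5.26 to 5.39 on fetal arrays, and none passed in that comparison (1 had an unadjusted p under 0.05).

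Of 13 macrophage genes, 23.1% passed between adolescent and fetal cells, near the 18.8% of all genes, with a median difference of -0.01. Lyz2 rose by 1.89 ± 0.29 (adjusted p = 0.00044) and 2 fell, among them Cd68 with a difference of -0.79 ± 0.18 (adjusted p = 0.00714). Of 10 endothelial genes, 9 rose, or 90%, with a median difference of 1.48. Of 8 fibroblast genes 2 rose and 3 fell, or 62.5%. Of 11 satellite cell genes 10 rose, or 90.9%, Pax7 by 0.50 ± 0.10 (adjusted p = 0.00394). The part of these cells in the member values was not tested.

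**Figure D4:**
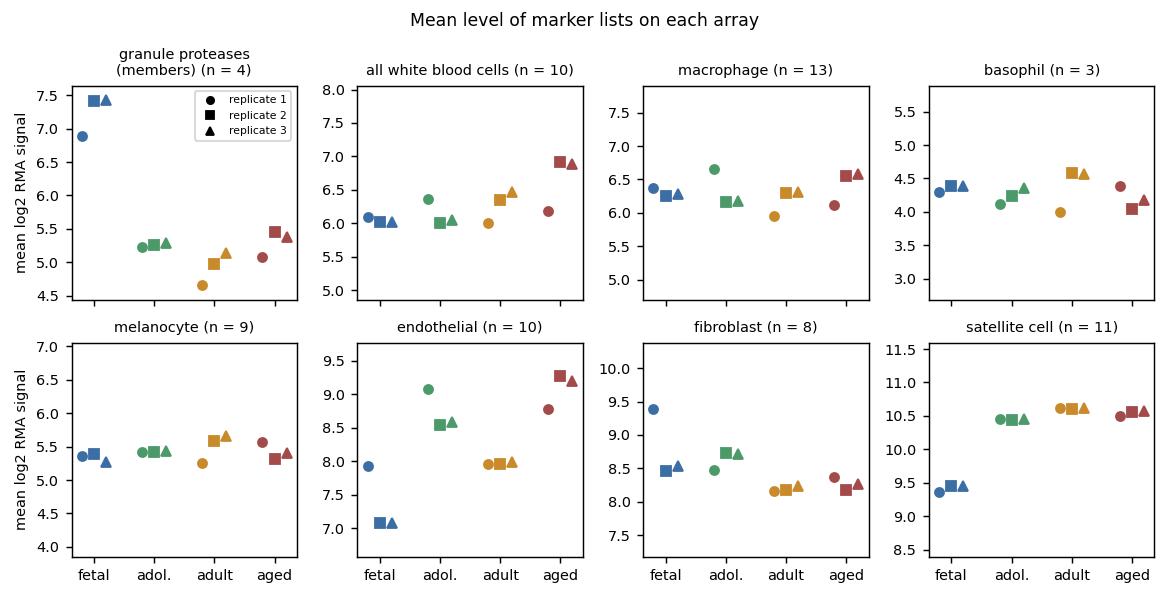
Mean log2 RMA signal of the 4 mast cell protease genes and of 7 marker lists on each array (replicates 1 to 3 as circle, square and triangle), with every vertical axis spanning the same range in log2 units. The protease mean is 6.89 to 7.43 on fetal arrays and at most 5.45 on the others, while the white blood cell mean is highest on aged replicates 2 and 3.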

How the data were processed

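The deposited values are log2 signals that the authors made with RMA in Affymetrix Expression Console 1.2.1.20, per the submitters' processing notes, from 12 single-colour arrays of 100 ng total RNA each, per the labels' protocols. RMA corrects background, quantile-normalizes arrays and summarises probes, which compresses low signals. Of 35556 probe sets, 21789 had 1 gene symbol in the platform annotation, 1621 had several and 12146 were not named. The brightest probe set by mean stood for each of 19938 genes.

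A single limma fit (limma 3.58.1 in R 4.3.3) over the 4 stages, with 8 residual degrees of freedom and Benjamini-Hochberg adjustment over all 19938 genes at 0.05, gave differences, SEs and p-values, and was tested on simulated data. The 9 members, the 73 other mast cell genes and the marker lists were chosen with earlier results of these data known. Not matched were Mcpt9, Ndst1, Lyn, Il1rl1, Adora3 and Ptgs1. Named were the members, Kitl, Ptprc, Pax7, up to 4 genes that passed per role and comparison and up to 2 per marker list by smallest p, and the 10 genes most like Cpa3. Not every gene that meets this rule is named. Where earlier calls repeated in a later comparison, or fell outside those described, they are counted only or left out. Calls in the lymphocyte, megakaryocyte, erythroid and Schwann cell lists are left out. For other marker lists, calls are given for some comparisons only. Same-numbered adolescent and adult arrays deviated together (r = 0.36, 0.32 and 0.24), but so did replicate 2 with replicate 3 (0.24 and 0.29). Replicate 1 with replicate 2 or 3 gave -0.34 to -0.26. These values do not show a pairing by number, and the labels state none. The replicate block stands beside that comparison as an alternative only. For same-numbered adolescent and fetal arrays r was 0.18, 0.20 and 0.03, and for aged and adult arrays -0.44, -0.39 and -0.24. Alternatives were another normalization, a filter on dim genes, the mean of probe sets, fits of 2 stages, another variance model, the replicate block and each array left out. Averaging replicates 2 and 3, and leaving out the 3 arrays of raised background, were chosen after seeing the data.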

Additional observations from a re-analysis of the deposited data

How the results depend on the processing

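Every member kept the sign of its adolescent minus fetal difference over the alternatives run, except Fcer1a (-0.06 to 0.10), which lies under the background. Cpa3 ranged from -4.38 to -4.20, Hdc from -1.78 to -1.39, Mcpt4 from -1.58 to -1.08, Tpsb2 from -1.46 to -1.27, Cma1 from -1.24 to -0.90, Kit from -0.64 to -0.52 and Gata2 from 0.31 to 0.45. For aged minus adult, Cpa3 ranged from 0.59 to 1.35 and Mcpt4 from 0.64 to 1.11. The member median, with each array left out in turn, ranged from -1.24 to -0.90 for adolescent minus fetal, -0.08 to 0.02 for adult minus adolescent, 0.00 to 0.16 for aged minus adult and -1.09 to -0.66 for adult minus fetal. Without the arrays of raised background, with 1 adult array left, it was -0.26, 0.32 and -1.30 in the last 3 comparisons, and -1.08 for adult minus fetal with quantile normalization repeated. With dim genes filtered out, Fcer1a and Ms4a2 drop out and no median was computed. The count of the 67 other mast cell genes that passed, with each array left out, ranged from 11 to 17 for adolescent minus fetal, 5 to 22 for adult minus adolescent, 2 to 16 for aged minus adult and 19 to 34 for adult minus fetal. It was 6 with the replicate block for adult minus adolescent, and the block moved no other count by over 1.5 times. It was 3 in a fit of adult and aged cells alone. Without the arrays of raised background it was 26, 6 and 21 in the first 3 comparisons, and with replicates 2 and 3 averaged 7, 0, 0 and 10 in the 4. Those counts of 0 are by limma, with 8 and 6 genes at an unadjusted p under 0.05. No single gene reversed its call, and 152 calls were lost in 835 repeats over single genes and alternatives. In each case the cause was not tested. With 3 arrays per stage, signals under the receptor background give bounds only.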

Other observations

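Of 6 genes that mark blood progenitors, Hlf rose and Myb fell between adolescent and fetal cells, or 33.3%. Of all genes 18.8% passed there. Flt3 and Slamf1, also on the list, passed in no comparison. Flt3 was above background on 1 aged array only and Slamf1 on no array. Hlf, a factor of blood stem cells, rose by 1.29 ± 0.10 (limma, adjusted p = 8.85e-07). Myb, a transcription factor of progenitors and of dividing cells, was 7.67, 7.69 and 7.94 on fetal, 7.16, 6.65 and 6.76 on adolescent, 6.02, 5.82 and 5.76 on adult and 5.49, 5.47 and 5.31 on aged arrays. It fell by 0.91 ± 0.14 for adolescent minus fetal (adjusted p = 0.000376). Only 1 adult array was above background for Myb, and adult signal was at least 1.69-fold lower than adolescent signal (adjusted p = 0.000567). Between aged and adult cells Angpt1 and Mecom rose, or 33.3% of the list, where 3.5% of all genes passed. Angpt1, an angiopoietin that supports vessels and blood stem cells, was 6.19, 6.82 and 6.66 on aged arrays and 5.37, 4.71 and 4.91 on adult arrays. With 1 adult array above background it was at least 1.6-fold higher in aged cells (adjusted p = 0.000743). Mecom, likewise above background on 1 adult array, was at least 1.47-fold higher (adjusted p = 0.0353).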
